A study of Mus musculus with 4 samples.

Results

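The integrin genes described here are 10 mouse genes that encode receptor subunits for the cartilage and pericellular matrix. Itga1, Itga2, Itga10 and Itga11 encode the alpha subunits of the 4 collagen receptors. Itga5, Itgav, Itgb1, Itgb3, Itgb5 and Itgb8 encode the fibronectin receptor, the receptors for vitronectin and latent TGF-beta, and the beta subunit that the collagen receptors use. The members were all peaks of open chromatin that lay in one of these genes or within 50 kb of it, by the RefSeq gene positions on GRCm38. They were 708 of the 455071 peaks in the series, at 10 of 21887 protein-coding genes.

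Integrins are heterodimers of an alpha and a beta subunit that span the membrane and join matrix ligands outside the cell to talin, kindlin and the actin cytoskeleton inside it. The 4 collagen-binding alpha subunits carry an inserted domain that grips triple-helical collagen, and each pairs with Itgb1 only. The receptor made with Itga10 favours the type II collagen of cartilage, and those made with Itga2 and Itga11 favour fibrillar type I collagen. Itga1 makes a receptor with a preference for the type IV collagen of basement membranes and the pericellular matrix. Itga5 with Itgb1 is the classical fibronectin receptor, and Itgav pairs with Itgb1, Itgb3, Itgb5 or Itgb8 to read the RGD motif of vitronectin, fibronectin or latent TGF-beta.

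The study compared knee cartilage chondrocytes of C57BL/6 mice, taken at postnatal day 0 to 4, before and after serial culture, to follow their dedifferentiation. Cells at passage 0 (P0) had been in culture for under a day, and cells at passage 8 (P8) had been replated after each doubling, seeded at 24000 and collected at 48000 cells per cm2. Both groups were wild type as far as the labels say, were grown in DMEM/F12 with fetal bovine serum and received no agent, and each was assayed by ATAC-seq in 2 libraries, here called A and B. ATAC-seq marks open chromatin by the insertion of Tn5 transposase, and its peaks carry a fold enrichment. This is the pileup of tags at the summit over the local background, with the same small constant added to both. Nothing in the labels says that libraries of a passage came from separate animals or cultures, so every p-value measures only the spread between these libraries. In bulk chromatin, fewer cells with a site open and a less open site in each cell cannot be told apart.

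The libraries held 145703 (P0 A), 119974 (P0 B), 89610 (P8 A) and 99784 (P8 B) peaks, and both P0 libraries were also the deeper ones, with a background of 194 and 162 against 140 and 134 tags per 10 kb. Of 6 chondrocyte marker genes, 5 had a peak in the gene or within 1 kb in all 4 libraries, and the exception was Matn1, with 1, 3, 0 and 0 peaks there and 17, 19, 5 and 9 within 50 kb. Summed over the chondrocyte markers, the windows of 50 kb around the genes held 149 and 128 peaks at P0 and 73 and 99 at P8. For 5 macrophage and leukocyte markers the sums were 55 and 36 against 27 and 34, for 4 endothelial markers 36 and 30 against 19 and 29, and for 5 fibroblast markers 77 and 64 against 55 and 55. For 3 platelet markers the sums were 56 and 42 against 32 and 40. Pf4 and Gp1ba had no peak in the gene or within 1 kb in any library, and Itga2b had 3, 4, 4 and 5. All 4 endothelial markers, 3 of 5 macrophage and leukocyte markers and 4 of 5 fibroblast markers had a peak there in all 4 libraries. This measure therefore did not set the chondrocyte markers apart. The part of depth and of other cell types in the results below was not tested, beyond the values at matched background that stand beside them.

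The promoters are shown first for 6 of the members, because the starts had peaks in nearly every library in both classes. No site there was held by both libraries of a passage and by neither library of the other. Each run is the 250 bases before the transcription start, written 5′ to 3′ in the direction of the gene, from the RefSeq promoter table of GRCm38.p6. Capitals mark matches to the motifs described after them. Itga10 and Itga11 stand for the collagen receptors, with the strongest and the weakest peak at a start, and the other 4 hold most of the motif matches.
Itga10 promoter, chr3:96645334-96645583, plus strand: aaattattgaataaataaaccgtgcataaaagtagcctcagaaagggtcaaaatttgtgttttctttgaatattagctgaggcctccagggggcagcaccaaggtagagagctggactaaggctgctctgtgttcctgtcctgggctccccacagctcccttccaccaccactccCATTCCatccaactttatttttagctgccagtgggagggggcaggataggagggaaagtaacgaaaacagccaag
Itga11 promoter, chr9:62677605-62677854, plus strand: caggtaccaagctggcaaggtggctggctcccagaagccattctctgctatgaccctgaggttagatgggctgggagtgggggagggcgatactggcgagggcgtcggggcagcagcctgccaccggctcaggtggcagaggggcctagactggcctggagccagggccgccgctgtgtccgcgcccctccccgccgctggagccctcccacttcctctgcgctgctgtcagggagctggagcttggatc
Itga5 promoter, chr15:103366792-103367041, minus strand: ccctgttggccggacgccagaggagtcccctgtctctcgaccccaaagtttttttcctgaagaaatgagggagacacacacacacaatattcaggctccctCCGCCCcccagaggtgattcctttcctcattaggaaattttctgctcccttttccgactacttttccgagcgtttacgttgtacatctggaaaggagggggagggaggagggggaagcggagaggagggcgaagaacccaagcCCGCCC
Itgb1 promoter, chr8:128685404-128685653, plus strand: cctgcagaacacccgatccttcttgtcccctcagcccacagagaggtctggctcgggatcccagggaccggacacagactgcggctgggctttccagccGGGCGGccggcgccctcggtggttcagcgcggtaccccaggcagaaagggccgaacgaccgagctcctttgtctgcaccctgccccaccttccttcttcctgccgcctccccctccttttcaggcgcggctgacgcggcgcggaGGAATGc
Itgb5 promoter, chr16:33829415-33829664, plus strand: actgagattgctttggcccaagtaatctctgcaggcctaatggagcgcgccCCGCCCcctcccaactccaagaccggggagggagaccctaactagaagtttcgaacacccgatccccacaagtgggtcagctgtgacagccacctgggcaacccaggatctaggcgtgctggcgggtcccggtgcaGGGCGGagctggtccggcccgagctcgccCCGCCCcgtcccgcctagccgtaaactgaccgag
Itgb8 promoter, chr12:119238277-119238526, minus strand: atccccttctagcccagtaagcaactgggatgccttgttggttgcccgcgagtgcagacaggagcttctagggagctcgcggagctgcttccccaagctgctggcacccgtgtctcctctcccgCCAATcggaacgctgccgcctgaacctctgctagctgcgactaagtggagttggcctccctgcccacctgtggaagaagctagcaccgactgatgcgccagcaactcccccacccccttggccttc

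Of the 10 genes, 9 had an entry in the promoter table, and Itgb3 had none. The 7 short motifs named next were searched on both strands in these 250 bases, and the share of all 32851 promoters in the table that held each one is given for scale. The GC box (GGGCGG) was found in Itga5, Itgb1 and Itgb5, 3 of 9 members, against 32.7% of all promoters, with 2, 1 and 3 matches. The CCAAT box (CCAAT, 33.8% of promoters) was found in Itgb8 only, and the TEAD motif (GGAATG, 12.6%) in Itga10 and Itgb1. No match was found in the 9 members for the AP-1 motif (TGANTCA, 6.75% of promoters), the cyclic AMP element (TGACGTCA, 1.55%), the TATA box (TATAAA, 12.4%) or the RUNX motif (TGTGGT, 14.0%). A match is a string of letters and not a bound site. The GC content of the promoters ran from 48.0% in Itga10 to 68.4% in Itga11, with a median of 52.4% over all promoters.

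Of the 10 integrin genes, 9 had open chromatin at a start or gene end in all 4 libraries, and Itga11 was the exception. At Itga1 the highest fold enrichment within 1 kb of the start reached 8.87 and 10.6 at P0, against 9.24 and 9.13 at P8. At Itga10, the collagen II receptor subunit, P0 reached 12.0 and 14.8 and P8 reached 8.22 and 9.45. At Itga2 the values were 8.07 and 7.61 in the P0 libraries, with 6.94 and 5.92 at P8. The passages overlapped at Itga1 and did not overlap at Itga10 and Itga2, where both P0 libraries were higher. Beside this, both P0 libraries exceeded both P8 libraries at 49.9% of the 55294 sites with a peak in all 4 libraries, and both P8 libraries exceeded both P0 libraries at 11.6%. The Itga10 window is dense in genes, so its peaks cannot each be given to one gene. In the limma test on log2 fold enrichment centred on each library's median, the Itga10 start site differed by -0.33 (P8 minus P0, adjusted p = 0.196). The Itga2 start site differed by -0.02 in the same test (adjusted p = 0.963, limma).

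Itga11, whose product is the fibroblast receptor for type I collagen, had the least regular start. Its highest fold enrichment within 1 kb was 5.89 in P0 A, 4.88 in P8 A and 3.67 in P8 B, and P0 B had no peak there. Peaks covered 2 of the 250 promoter bases printed above in P0 A, 111 in P8 A and 0 in P0 B and P8 B. The presence of a peak at this start therefore differed between libraries of the same passage.

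Among the other integrins, the starts were close between passages, except at Itgb3, where a gene end was measured. Itgb1, the shared beta subunit, had 9.45 and 10.1 at P0 and 9.67 and 9.0 at P8. Itgav had 8.24 and 10.1 at P0 and 8.96 and 8.78 at P8. Itgb8, which with Itgav activates latent TGF-beta, had 9.92 and 10.3 at P0 and 9.13 and 10.5 at P8. The passages overlapped at all 3 of these starts. Itga5 had 5.70, 6.95, 6.21 and 6.09 (P0 A, P0 B, P8 A, P8 B), and Itgb5, a vitronectin receptor subunit, had 5.42, 7.03, 5.52 and 5.5. These 2 also overlapped, at lower levels than the first 3. At Itgb3, the lower-coordinate end of the gene had 6.95 and 7.24 at P0 and 5.34 and 5.14 at P8, so that P0 was higher in both libraries, and the upper-coordinate end had no peak in any library. The direction of transcription of Itgb3 is not in the tables used here. None of the start sites fitted passed the limma test at an adjusted p of 0.05. The Itga11 start had no site with a peak in all 4 libraries and was not fitted, and for Itgb3 the site at the lower-coordinate end was fitted.

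**Figure D1:**
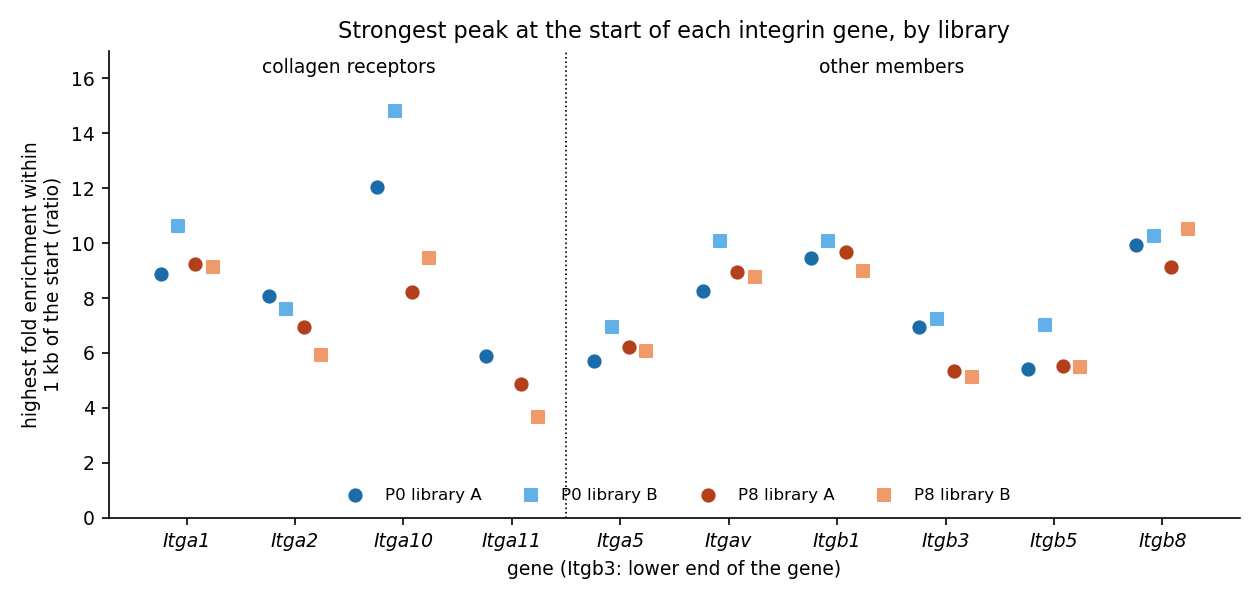
Highest fold enrichment of a peak within 1 kb of the start of each integrin gene (for Itgb3, of its lower-coordinate end) as a ratio over local background on the vertical axis, with 1 point per library, P0 in blue, P8 in orange, circles for library A and squares for library B. Itga10 has the highest values at P0 (12.0 and 14.8), and Itga11 lacks a point for P0 B.

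Peaks around the whole genes were more numerous at P0 than at P8 in the collagen receptor genes, and nearly as numerous at both passages in the others. The 4 collagen receptor genes held 85 and 71 peaks at P0 and 53 and 63 at P8, a mean of 78.0 ± 9.90 against 58.0 ± 7.07 (SD, n = 2 libraries). The 6 other genes held 122 and 107 peaks at P0 and 102 and 105 at P8, a mean of 114.5 ± 10.6 against 103.5 ± 2.12 (SD, n = 2). The passages did not overlap in either class. The ratio of P0 to P8 was 1.34 for the collagen receptors and 1.11 for the others, beside 1.41 for all peaks of the series. An exact two-sided permutation test of 2 against 2 libraries gave p = 0.33 for each class, which is the smallest p this design allows.

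The collagen receptor genes took 41.1% and 39.9% of all integrin peaks at P0, and 34.2% and 37.5% at P8. The share was higher in both P0 libraries. It was 40.5% ± 0.831 at P0 and 35.8% ± 2.34 at P8 (SD, n = 2), a difference of -4.63 percentage points (exact two-sided permutation p = 0.33, the smallest possible). The 95% Wilson intervals of the single libraries ran from 34.6 to 47.9% in P0 A and from 27.2 to 42.0% in P8 A and thus overlapped. These intervals cover counting error only. At matched background, which removes peaks that would not have been called at the depth of the shallowest library, the collagen receptor genes held 64 and 69 peaks at P0 and 53 and 62 at P8, a ratio of 1.16. The others had a ratio of 1.02, and all peaks of the series one of 1.24. At matched background the collagen receptor share differed by -3.02 percentage points (exact two-sided permutation p = 0.67). The shares of the passages then overlapped.

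Most of the excess at P0 lay at Itga1 and Itga2, neighbours on chromosome 13 whose windows share 9 sites. Itga1 (Gene ID 109700, chr13:114958079-115101964, minus strand, 144 kb) had 33 and 25 peaks at P0 and 14 and 19 at P8, a ratio of 1.76. Itga2 (chr13:114833081-114932100, minus strand, 99.0 kb) had 19 and 20 peaks at P0 and 15 and 10 at P8, a ratio of 1.56. Neither gene's counts overlapped between the passages. Itga10 (chr3:96645584-96664519, plus strand, 18.9 kb) had 19 and 19 peaks against 15 and 16, also without overlap, but 13 of the 20 sites in its window lay at an end of another gene and 3 had Itga10 as their nearest gene. Itga11 (chr9:62677855-62783979, plus strand, 106 kb) had 21 and 12 peaks at P0 and 14 and 22 at P8, so the libraries of each passage differed by more than the passages did.

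In the other class, Itgb3 (chr11:104608000-104670476, 62.5 kb) had 21 and 18 peaks at P0 and 16 and 16 at P8, without overlap. Itga5 (chr15:103344286-103366791, minus strand, 22.5 kb) had 29 and 25 against 21 and 26 peaks, and Itgb5 (chr16:33829665-33949338, plus strand, 120 kb) had 28 and 28 against 26 and 29. Itgav (chr2:83722303-83806917, plus strand, 84.6 kb) had 17 and 17 against 17 and 15. Both libraries of P0 overlapped those of P8 in these 3 genes, as they did in Itgb1 (chr8:128685654-128733579, plus strand, 47.9 kb), with 16 and 11 against 12 and 11, and Itgb8 (chr12:119162803-119238276, minus strand, 75.5 kb), with 11 and 8 against 10 and 8. In all, 4 of the 10 integrin genes had more peaks in both P0 libraries than in either P8 library, against 48.3% of the 20365 genes with any peak in the window. None of the 10 had more in both P8 libraries, against 3.95% of genes. At matched background Itga1 (25 and 24 against 14 and 18 peaks) and Itgb3 (20 and 17 against 16 and 16) remained among those without overlap, 2 of 10, against 38.2% of genes.

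**Figure D2:**
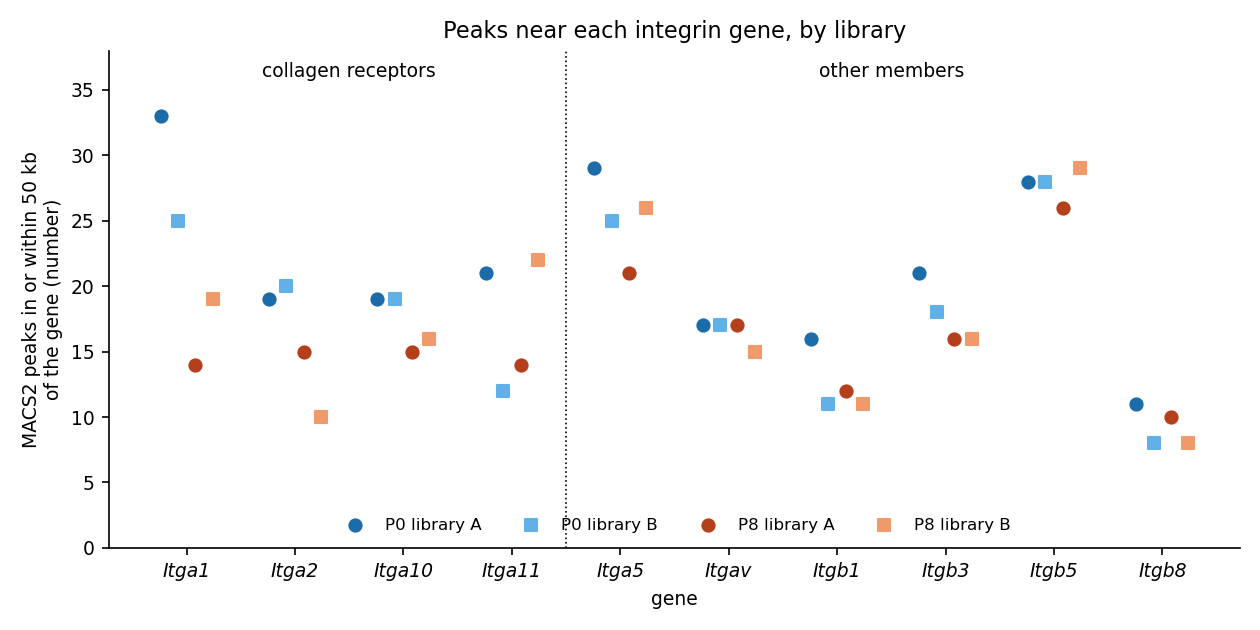
Number of peaks in or within 50 kb of each integrin gene (vertical axis), with 1 point per library, P0 in blue, P8 in orange, circles for library A and squares for library B. Itga1 shows the widest gap between passages (33 and 25 against 14 and 19 peaks), and the Itga11, Itga5, Itgav, Itgb1, Itgb5 and Itgb8 points overlap.

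Peaks that overlapped, within or between libraries, were counted as 1 site, which gave 244 sites, 100 at the collagen receptor genes and 144 at the others. Sites held by both P0 libraries and by neither P8 library numbered 12 of 100 at the collagen receptors, or 12.0% (95% Wilson interval 7.0 to 19.8%), and 11 of 144 at the others, or 7.64% (4.32 to 13.2%). The intervals overlapped, and both shares were under the 17.1% of all 170558 sites of the series. Sites held by both P8 libraries only numbered 0 of 100 and 4 of 144 (2.78%, 1.09 to 6.92%), against 1.82% of all sites. Sites held by all 4 libraries were 37.0% at the collagen receptors and 49.3% at the others, against 32.4% of all sites. Sites near 1 gene share the same 4 libraries and are not replicates of each other. The sites without a consistent pattern were narrow and weak, with a median width of 116 bp and a median highest fold enrichment of 4.43, against 438 bp and 8.94 for sites in all 4 libraries.

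Inside the genes, the P0-only share of the collagen receptors was near that of the whole series and that of the others was under it. Of 55 sites inside a collagen receptor gene, 8 were held by P0 only, 5 in Itga1, 2 in Itga2 and 1 in Itga11, and 18 by all 4 libraries. Of all 96443 sites inside a protein-coding gene, 16.7% were held by P0 only and 36.4% by all 4 libraries. Of 64 sites inside the other genes, 1 was held by P0 only and 40 by all 4 libraries. All 4 sites held by P8 only lay inside a gene of the other class, in Itgav, Itgb1, Itgb5 and Itgb8. Their fold enrichment at P8 was 4.16 and 3.93 in Itgav (chr2:83760139-83760360), 3.79 and 5.52 in Itgb1 (chr8:128704191-128704337), 4.17 and 4.09 in Itgb5 (chr16:33873299-33873481), and 3.96 and 3.54 in Itgb8 (chr12:119163828-119163980). All were weak beside the starts of the same genes. Exons and introns were not resolved, since the gene table used here gives gene ends only.

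**Figure D3:**
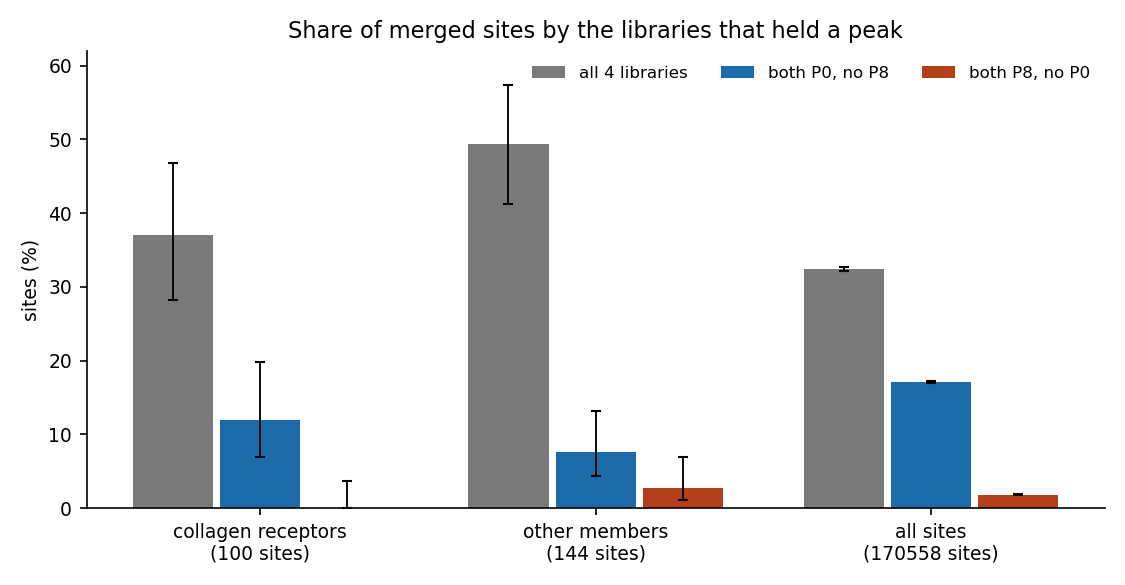
Share of sites in percent (vertical axis) held by all 4 libraries (grey), by both P0 libraries only (blue) or by both P8 libraries only (red), for the collagen receptor genes (100 sites), the other integrin genes (144 sites) and all 170558 sites of the series, with 95% Wilson intervals as error bars. The P0-only share is 12.0% and 7.64% in the integrin classes and 17.1% over all sites.

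By distance, none of the 20 pairs of a gene and a site within 1 kb of its start was held by P0 only. At the collagen receptors, 2 of 42 pairs between 1 and 50 kb from the start and 10 of 55 pairs beyond 50 kb were held by P0 only. At the other genes the counts were 7 of 80 and 2 of 31, without Itgb3, whose 25 sites (2 of them P0 only) have no start to be measured from. Over all sites of the series, at any distance, 17.1% were held by P0 only. No test was run on these counts, since the sites share libraries and the genes differ in length.

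Itga1 carried the densest group of sites held by P0 only, in a stretch that was chosen after its values were seen. It spans 34.2 kb inside the gene (chr13:114994598-115028793), 73.4 to 107 kb from the start, and had 9 sites. Of these, 5 were held by P0 only and 1 by all 4 libraries, and the libraries had 7, 8, 2 and 1 peaks there (P0 A, P0 B, P8 A, P8 B). The strongest site held by P0 only (chr13:115028369-115028793) had a fold enrichment of 8.88 and 9.79 at P0, near the level of the Itga1 start. The other 4 had 4.97 and 4.58, 5.39 and 5.03, 6.39 and 6.87, and 7.21 and 6.43. The site held by all 4 (chr13:115006230-115006424) had 7.81 and 6.87 at P0 and 4.94 and 6.06 at P8. Of all 38 sites in the Itga1 window, 6 were held by P0 only, a share under the 17.1% of all sites. At matched background 6 of 30 sites of Itga1 were held by P0 only (20%), against 15.4% of all sites.

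Itga2 had 4 sites held by P0 only, with fold enrichments of 7.04 and 6.41, 4.14 and 4.58, 3.62 and 4.00, and 5.38 and 5.03 in P0 A and P0 B, and 2 of 21 sites were held by P0 only at matched background. Itga11 had 1 (chr9:62749835-62750167, 7.04 and 6.41) and Itga10 had 1. Of the 29 Itga11 sites, 20 were held by other combinations of libraries, among them 5 by P0 A alone and 5 by P8 B alone. Its counts therefore varied from library to library more than by passage.

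**Figure D4:**
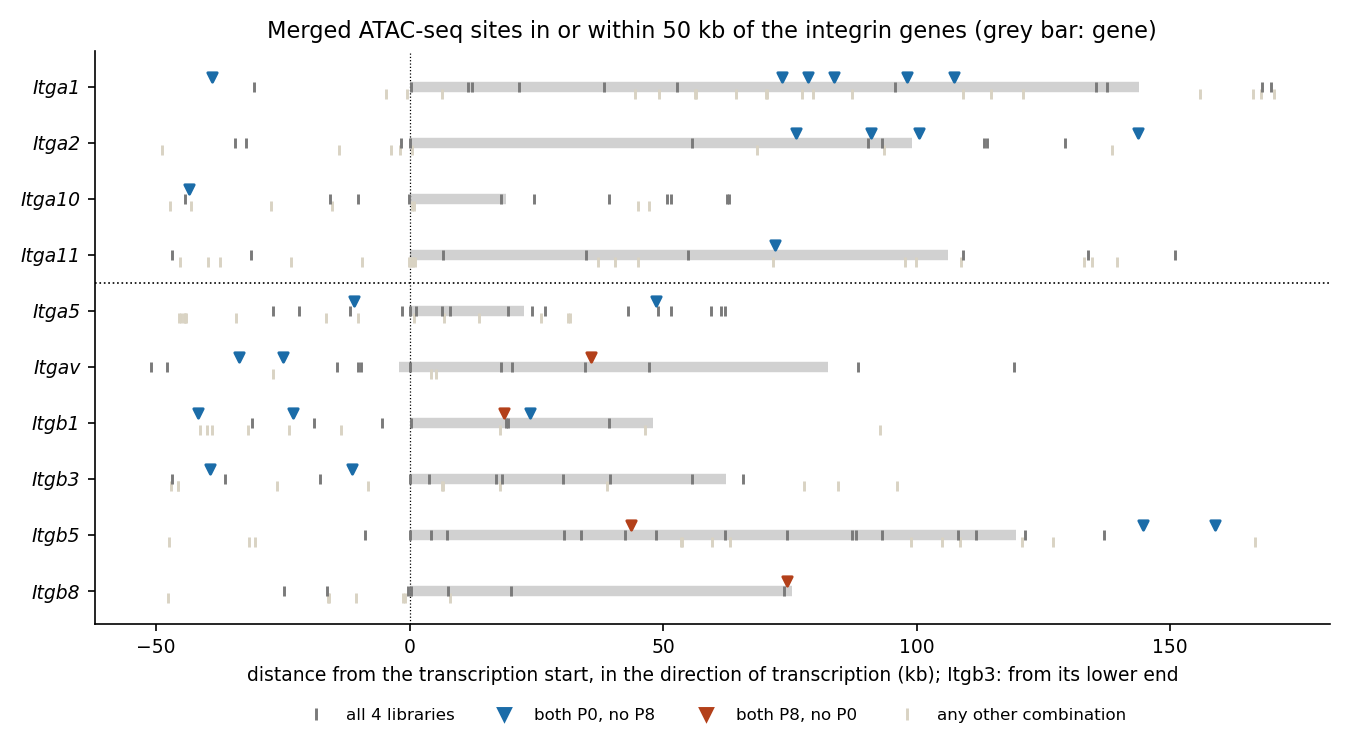
Map of the sites around each integrin gene by distance from the transcription start in kb, in the direction of transcription (for Itgb3, from its lower-coordinate end), with the gene as a grey bar, blue triangles for sites held by P0 only, red triangles for P8 only, dark ticks for all 4 libraries and pale ticks for other combinations. In Itga1, 5 of the 6 blue triangles lie between 73.4 and 107 kb from the start, and no triangle lies within 1 kb of a start.

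The strongest sites, by the highest fold enrichment in any library, were held by all 4 libraries in every member. At the collagen receptors the highest fold enrichments were 17 and 15.4 at P0 and 12.5 and 13.3 at P8, at a site beyond the far end of Itga11 (chr9:62828620-62829180). That site lay 44.6 kb from Itga11, and its nearest protein-coding gene was Cln6. A site inside Itga1 that also lies within 50 kb of Itga2 (chr13:114964279-114964564) had 14.1 and 15 at P0 and 8.41 and 12.0 at P8 (adjusted p = 0.288). P0 was higher in both libraries at both of these sites. Relative to the library medians, the first differed by -0.06 (log2, P8 minus P0, adjusted p = 0.809, limma) and the second by -0.26. In the Itga10 window the strongest site (chr3:96669909-96670498) lay at an end of Ankrd35, with 15.2 and 14.7 against 11.2 and 12.0.

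At the other integrins, a site inside Itgb5 (chr16:33878070-33878497) had 13.4 and 13.9 at P0 and 12.9 and 12.5 at P8. A site outside Itgb3 (chr11:104590063-104590615, nearest gene Myl4) had 15.7 and 11.4 against 9.72 and 11.2, and one outside Itgb1 (chr8:128679889-128680355) had 11.8 and 10.1 against 9.55 and 11.7. The passages were apart at the first of these, narrowly apart at Itgb3 and overlapped at Itgb1. In the Itgb8 window the strongest site lay outside the gene (chr12:119262844-119263199), with 11.9 and 8.24 against 10.9 and 12.9, a log2 difference of 0.53 (adjusted p = 0.0569, limma). The strongest site inside Itgb8 (chr12:119217873-119218525) had 11.9 and 11.4 against 7.91 and 8.08. In the Itga5 window a site outside the gene (chr15:103393549-103394005, nearest gene Gtsf1) had 9.21 and 12.4 against 13.7 and 11.1. In the Itgav window a site at an end of Fam171b (chr2:83812393-83813071) had 12.6 and 12.3 against 10.5 and 9.97. P0 was higher in both libraries at the site inside Itgb8 and at the Fam171b site, and the passages overlapped at the Itga5 site and the Itgb8 site outside the gene. Over the 108 integrin sites with a peak in all 4 libraries, both P0 libraries exceeded both P8 libraries at 21 of 37 collagen receptor sites and 29 of 71 other sites, against 49.9% of all sites. Both P8 libraries exceeded both P0 libraries at 2 of 37 and 7 of 71, against 11.6%. Itgb1 had 0 sites of 7 apart in either direction, and Itga11 had 6 of 8 higher at P0.

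Fold enrichment was lower overall at P8, by 0.27 on the log2 scale between the medians of the libraries, so the test of single sites was made relative to each library's median. Of the 108 integrin sites fitted among 55294, 6 passed limma's test at an adjusted p under 0.05, or 0 of 37 at the collagen receptors and 6 of 71 at the others, against 9.99% of all sites. At an unadjusted p under 0.05 the counts were 7 of 37 and 17 of 71, against 26.4% of all sites. Relative to the library medians, 5 sites rose at P8 (6.23% of all sites did) and 1 fell (3.76%). The median difference was 0.07 at the collagen receptor sites and 0.17 at the other sites, with 0.07 over all sites (log2, P8 minus P0). Without centring, 0 integrin sites were called higher and 10 lower at P8, 4 of them at the collagen receptors. Over all 55294 sites, 589 were then called higher and 6516 lower, 12.8% in all. The split between higher and lower thus depends on this scaling.

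Of the 6 called sites, 4 lay in or within 50 kb of Itgb3, which with Itgav makes the classical vitronectin receptor. The site that fell lay inside the gene (chr11:104647121-104647817) and had 10.2 and 10.9 at P0 and 4.77 and 5.61 at P8. Both P8 libraries were well under both P0 libraries, and the log2 difference was -0.75 (SE 0.19, adjusted p = 0.0168, limma). A second site inside Itgb3 (chr11:104638054-104638349) had 7.45 and 3.66 at P0 and 7.24 and 8.59 at P8, so that the fold enrichments overlapped, and a log2 difference of 0.87 (SE 0.25, adjusted p = 0.0378, limma). This site rested on the low value of P0 B, and without that library the difference was 0.32 and was not called.

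The other Itgb3 sites that rose lay outside the gene. The first, 36.3 kb away (chr11:104571294-104571707), had 6.24 and 5.54 at P0 and 8.39 and 7.04 at P8, without overlap, a log2 difference of 0.66 (SE 0.20, adjusted p = 0.0475, limma). Its nearest protein-coding gene was Myl4 and not Itgb3. The second, 3.0 kb away (chr11:104673452-104673986), had 7.04 and 5.03 against 8.28 and 7.54, also without overlap, a difference of 0.68 (SE 0.21, adjusted p = 0.0456, limma). Sites inside and near Itgb3 thus moved in both directions relative to the library medians.

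At Itgav, a site 10.2 kb upstream of the start (chr2:83713996-83714479) had 4.81 and 3.88 at P0 and 5.51 and 6.49 at P8, without overlap, a log2 difference of 0.74 (SE 0.20, adjusted p = 0.0257, limma). At Itgb8, a site inside the gene (chr12:119164168-119164566) had 5.38 and 5.49 against 7.91 and 7.07, also without overlap, a difference of 0.73 (SE 0.20, adjusted p = 0.0280, limma). A site held by P8 only, in the same gene, lies just beside it. Each of the 6 sites kept its direction in all 9 alternatives tried for the fit, but not its call. The site that fell was called in 7 of 9, and the 5 that rose in 3 or 4 of 9. All 5 lost their call without centring and with quantile normalization, where their adjusted p (limma) lay between 0.0765 and 0.208. No call was left at any integrin site without P0 A, when none was left at any site of the series (0 of 55749 fitted, with 9848 at an unadjusted p under 0.05), or without P0 B, when 245 sites of the series were called higher and 185 lower.

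**Figure D5:**
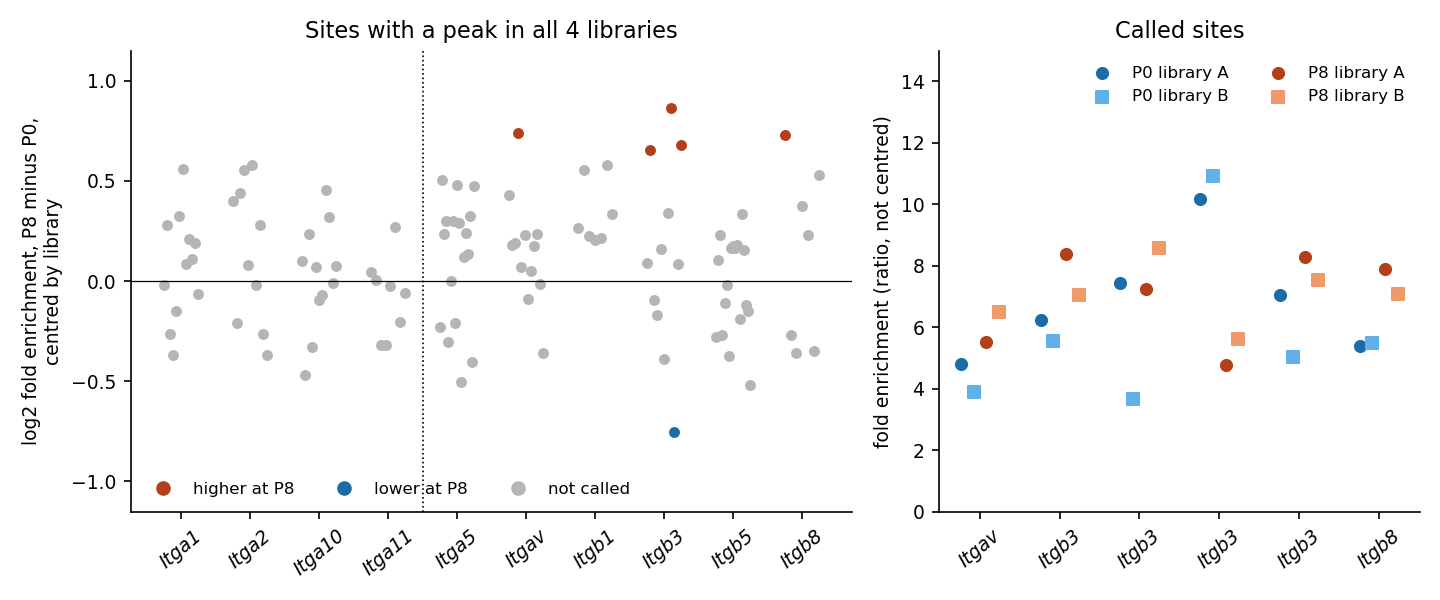
Left, the log2 difference in centred fold enrichment (P8 minus P0) by gene, with 1 point per site with a peak in all 4 libraries, called sites in red (higher at P8) or blue (lower), and sites shared by Itga1 and Itga2 drawn at both. Right, the fold enrichment of the 6 called sites in each library before centring, where P0 is well above P8 at 1 Itgb3 site (10.2 and 10.9 against 4.77 and 5.61) and no called site belongs to a collagen receptor gene.

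The rest of the adhesion pathway gives the setting for these values. Among all genes 48.3% had more peaks in both P0 libraries and 3.95% in both P8 libraries, and among all sites fitted 6.23% were called higher and 3.76% lower at P8. Around 16 other integrin subunit genes, 9 had more peaks in both P0 libraries and 1, Itgad, in both P8 libraries. Their P0-only sites were 16.8% of 340, and limma called 9 of 128 sites higher and 5 lower at P8. Around 24 genes for the adhesion complex and its signalling, which includes talin and kindlins, 18 had more peaks in both P0 libraries and 1, the kindlin gene Fermt1, in both P8 libraries. Their P0-only sites were 16.5% of 702, with 17 of 275 sites called higher and 5 lower. Of 16 listed ligand genes, 15 matched, and 8 of these had more peaks in both P0 libraries, with P0-only sites at 15.2% of 394 and 9 of 147 sites called higher and 7 lower. These lists stood near the 17.1% of all sites in their P0-only share, and the 10 integrin genes stood at 9.43% of 244. A pair of genes in the other integrin list, Itgam and Itga2b, are also markers of leukocytes and platelets.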

How the data were processed

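ATAC-seq libraries of P0 and P8 chondrocytes, 2 for each passage, were analysed from the peaks that the authors had called per library with MACS2 after alignment with Bowtie2. The submitters' processing notes also name ChIPseeker, DiffBind, HOMER and the build mm10. The deposited peaks give a summit pileup, which is a signal in tags unscaled for depth, and a fold enrichment. The latter is the ratio of this pileup to the background around the peak, with the same small constant added to both. Where the background is low, the constant pulls the ratio down more, so fold enrichment is not free of depth. They also deposited the −log10 of the p-value and of the q-value of each peak. A table of the authors' own comparison, with log2 fold changes, p-values and FDR, was not used. The number of per-library value columns that went unused was 0.

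Peak names separate the libraries but hold no replicate numbers, so libraries are called A and B. Peaks that overlapped by at least 1 bp were merged into sites. The 4641 peaks off the main chromosomes entered no site. Sites were placed by the RefSeq gene table and promoter table of GRCm38.p6. Matched background means that −log10 p was recomputed for every peak as if its library had the smallest of the 4 backgrounds, with 3.38 as the lowest value kept.

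Log2 fold enrichment, centred on the library median, was compared in the 55294 sites with a peak in all 4 libraries with limma 3.58.1 in R 4.3.3, with Benjamini-Hochberg adjustment over all of them and a threshold of 0.05. Counts per library were compared with exact permutation tests, and shares have 95% Wilson intervals. Numpy 2.4.6, pandas 2.3.3 and scipy 1.17.1 were used, and the fit was tested on simulated data. Read counts per site were not used here. All 10 members were described. The sites named were those called by limma, some of those held by both libraries of 1 passage only, and the strongest at each gene. The alternatives were other windows, stricter peaks, matched background, other scalings and leaving out each library. The members and the gene lists were chosen with earlier results of these data known.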

Additional observations from a re-analysis of the deposited data

How the results depend on the processing

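Of 147 alternative values for the main counts, shares and ratios, 105 were counted as unchanged, which did not require a similar size. Ratios and differences in the collagen receptor share that were so counted kept their direction. That share difference, -4.63 points as reported, was -13.0 inside the gene only and -10.4 within 10 kb, and both were counted as unchanged. Inside the gene only, the P0 to P8 ratio of the other integrins turned to 0.973, their P0-only share fell to 1.56% and 1 gene had more peaks at P8. Within 10 kb that share was 1.22%, with 2 genes higher at P0 and 1 at P8. At matched background it was 3.68%, with 2 genes higher at P0. At a −log10 q of at least 5 the P0-only share of the collagen receptors was 24.2% and the P8-only share of the others 0.943%. Shares over all sites were not computed at this limit, so the main share of all sites gives no scale for these values. Where peaks had to cover at least 50% of a site, 7 genes were higher at P0, and the count over all genes was not computed under this rule. Without Itga1 and Itga2, an alternative added after the data were seen, the P0-only share of the collagen receptors was 4.08%.

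For called sites, no centring gave 4 lower at the collagen receptors and 0 higher and 6 lower at the others. Quantile normalization gave 0 higher at the others. Pileup over the background gave 2 higher and 1 lower at the collagen receptors and 11 higher and 5 lower at the others. Of all sites fitted, 12.8% were called without centring, 5.47% with quantile normalization and 22.6% with pileup over the background. A fold enrichment of at least 4 left 3 higher at the others, when 9.23% of all sites were called. A window of 100 kb gave 1 higher at the collagen receptors and 2 lower at the others, from the main fit, which called 9.99% of all sites. The cause of these changes was not tested.

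Leaving out 1 library at a time, the collagen receptor share differed by -6.28 to -2.98 points, and the P0 to P8 ratio was 1.22 to 1.47 at the collagen receptors and 1.03 to 1.18 at the others. The P0-only share was 15.6 to 32.6% and 9.02 to 24.8%, and the P8-only share 0 to 6.25% and 3.55 to 10.6%, where 1 library stands for a passage. The highest P0-only shares were those without P0 B. Such shares over all sites, and gene counts over all genes, were not computed with a library left out. Genes higher at P0 numbered 4 to 7 (7 without P0 B) and at P8 0 to 2 (2 without P8 A). Called sites at the collagen receptors numbered 0 to 1 higher and 0 to 3 lower, and at the others 0 to 7 higher and 0 to 3 lower, with 0 without P0 A or without P0 B. In such a fit the lone library is assumed to vary like the other passage.

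No paired analysis was possible because the peak names carry no replicate number. With 2 libraries per passage the smallest permutation p is 0.33. Depth differed with passage, and depth and passage cannot be told apart in the deposited peak counts.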
